A study of Homo sapiens with 72 samples.

Results

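The genes described here are the heat shock transcription factor HSF1 and 9 genes known as its targets: HSPA1A, HSPA1B, HSPA8, DNAJB1, HSPH1, HSP90AA1, HSPE1, HSPB1 and BAG3. They were taken from a list of names, chosen with earlier results of these data known, and are 10 of the 60371 genes in the files. All 10 were found by Ensembl identifier and passed the filter on low counts in every comparison with DMSO. They were measured by population RNA-seq, that is, poly(A)-selected TruSeq libraries made from whole wells, in U2OS, a human osteosarcoma cell line grown in 24-well plates. DMSO, the solvent, was given to 18 wells. A compound was given to 54 wells for 12 h, with 3 wells for each of 6 compounds at 100, 1000 and 10000 nM. The compounds, with their label codes, were triptolide (JAA804), a transcription inhibitor, homoharringtonine (LEE837), a translation inhibitor, pyrazolanthrone (AML108), nilotinib (AMN107), miglitol (BGW675) and MK-2206 (LHD510). The question was how these genes stood when the making of RNA or of new protein was blocked. All wells are of 1 cell line, and the labels do not say whether wells of a group were separate cultures, so p-values measure only the spread between wells.

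Heat shock proteins are chaperones, which hold unfolded proteins, help them fold or pass them on to be degraded. In resting cells HSF1 is kept inactive in part by binding to chaperones. When unfolded protein accumulates HSF1 is released, forms trimers and binds heat shock elements, which are inverted repeats of the letters GAA and TTC, upstream of its targets. HSPA1A and HSPA1B encode the inducible HSP70 and HSPA8 its constitutive relative HSC70. DNAJB1 is an HSP40 that hands substrates to HSP70, BAG3 and HSPH1 are nucleotide exchange factors of HSP70, HSP90AA1 is the inducible cytosolic HSP90, and HSPB1 is the small heat shock protein HSP27. HSPE1 encodes HSP10, which works with HSPD1 in the mitochondrial matrix, so the product of this member is not cytosolic.

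The promoters are shown because the members share a regulator and moved apart. RefSeq promoter windows (GRCh38.p14, 250 bases before to 50 bases after the start) matched 9 of the 10 members, all but HSF1. The letters GAANNTTC or TTCNNGAA, in which a GAA and a TTC unit face each other, were searched on both strands. The 9 members have 12 windows, since DNAJB1 has 3 and HSP90AA1 has 2. The letters were found in 7 of these 12 windows, which belong to 6 members, against 13.5% of 34943 windows in the table. The longer forms GAANNTTCNNGAA or TTCNNGAANNTTC, which contain the shorter ones, were found in 2 of the 12, 1 each of HSPA8 and HSP90AA1, against 0.489% of all windows. The windows of HSPH1, HSPE1 and BAG3 held neither, nor did the other HSP90AA1 window and 1 of DNAJB1. HSPE1 starts head to head with HSPD1, and a window of HSPD1 held 3 matches just upstream of the HSPE1 window, so that stretch is printed too. The stretches are given 5′ to 3′ on the strand of the gene with the matched units in capitals. For HSPA8 only the 2 matches nearest the start of its 4 are printed, and for DNAJB1 only the window with 2 matches, not the 1 with a single match past its start.
HSPA1A, chr6:31815367-31815456, plus strand: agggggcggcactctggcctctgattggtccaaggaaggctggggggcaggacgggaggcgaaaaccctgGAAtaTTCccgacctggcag
HSPA1B, chr6:31827563-31827652, plus strand: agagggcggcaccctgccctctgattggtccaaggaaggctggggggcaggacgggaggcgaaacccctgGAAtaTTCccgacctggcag
HSPA8, chr11:123062167-123062256, minus strand: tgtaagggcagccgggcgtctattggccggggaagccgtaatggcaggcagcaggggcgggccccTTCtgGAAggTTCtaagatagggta
DNAJB1, chr19:14518425-14518514, minus strand: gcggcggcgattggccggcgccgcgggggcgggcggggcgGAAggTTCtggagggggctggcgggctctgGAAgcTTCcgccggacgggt
HSP90AA1, chr14:102087093-102087182, minus strand: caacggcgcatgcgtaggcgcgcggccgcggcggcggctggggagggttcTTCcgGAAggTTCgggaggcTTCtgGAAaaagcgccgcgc
HSPB1, chr7:76302423-76302510, plus strand: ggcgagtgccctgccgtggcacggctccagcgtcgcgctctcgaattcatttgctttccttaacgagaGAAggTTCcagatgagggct
HSPD1, chr2:197500056-197500090, minus strand: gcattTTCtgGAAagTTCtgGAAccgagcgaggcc
The HSPA1A and HSPA1B stretches were identical at 86 of 90 bases and differed at 4. A match is a description of letters and does not show binding.

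Sums of expected counts, the estimates of reads per gene, ranged from 70767 to 68.3 mil per well, with a median of 38.4 mil and 3 libraries under 10 mil (triptolide 100 nM replicate 2, triptolide 1000 nM replicate 1 and DMSO replicate 10). As a check of the cell line, the summed level of 6 osteoblast lineage and mesenchymal markers was 1280 to 7553 TPM, with COL1A2 at 0.07 TPM in DMSO, while 5 markers of blood, epithelium and endothelium summed to 2.01 to 8.01 TPM. The share of counts from mitochondrially encoded mRNAs was 0.138 to 0.367% in DMSO wells, 0.518 to 1.15% in triptolide wells and 0.156 to 0.284% in homoharringtonine wells. Bulk values are relative to the RNA of each library, so they do not show a change in the total RNA per cell or in the number of cells.

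Resting U2OS cells already carried high levels of these mRNAs. On the TPM scale, which is per length and allows levels of different genes to be compared, HSPA8 came first in DMSO with 2053 ± 617 (SD, n = 18), followed by HSPB1 with 980 ± 244 and HSP90AA1 with 897 ± 121. HSPA1A followed with 377 ± 70.4, HSPE1 with 314 ± 80.8 and HSPA1B with 268 ± 38.1. HSF1 itself stood at 203 ± 23.8, DNAJB1 at 163 ± 16.8, HSPH1 at 78.9 ± 33.5 and BAG3 at 63.3 ± 8.91. In this order HSPB1 and HSP90AA1, HSPA1A and HSPE1, HSPE1 and HSPA1B, and HSPH1 and BAG3 differed by less than the larger SD of the pair.

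The members varied among the 18 DMSO wells together with a property of the library. That property was the GC slope, by which log2 levels over genes rise for each 10 percentage points of GC content, and it ran from -0.15 to 0.60 in DMSO wells. TMM-normalized CPM, the scale of all levels below, followed this slope in 9 of 10 members, with Benjamini-Hochberg adjusted permutation p-values over 10 tests of at most 9.9e-04. The slope is itself fitted to the levels of 9643 genes, and the share of all genes that follow it was not computed. The 9 of 10 is therefore a count only and not a trait of these genes. BAG3 (GC content 59.1%, Pearson's r = 0.93, Spearman's rho = 0.92), HSF1 (63.3%, r = 0.91, rho = 0.90) and HSPB1 (65.6%, r = 0.90, rho = 0.90) were higher in wells with a high slope. HSPH1 (GC content 38.9%, r = -0.96, rho = -0.93) and HSP90AA1 (46.3%, r = -0.95, rho = -0.96) were lower there, each of these 5 with a permutation p of 2.0e-05 or less, near 1.0e-05, the smallest 100000 resamples can give. Without the 2 wells farthest from the median slope, r was 0.91 for BAG3, 0.87 for HSF1, 0.88 for HSPB1, -0.93 for HSPH1 and -0.94 for HSP90AA1. DNAJB1 varied least with it (r = 0.37, rho = 0.31, adjusted permutation p = 0.13). Because of this, each fold change, difference and dose slope of the members below was also computed with the GC slope as a covariate. That value is given where it ends a call, turns the direction of a called value or moves it by more than 1.5 times. The GC slope comes from the same levels, so where it differs between groups the covariate and the compound cannot be fully told apart.

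**Figure D1:**
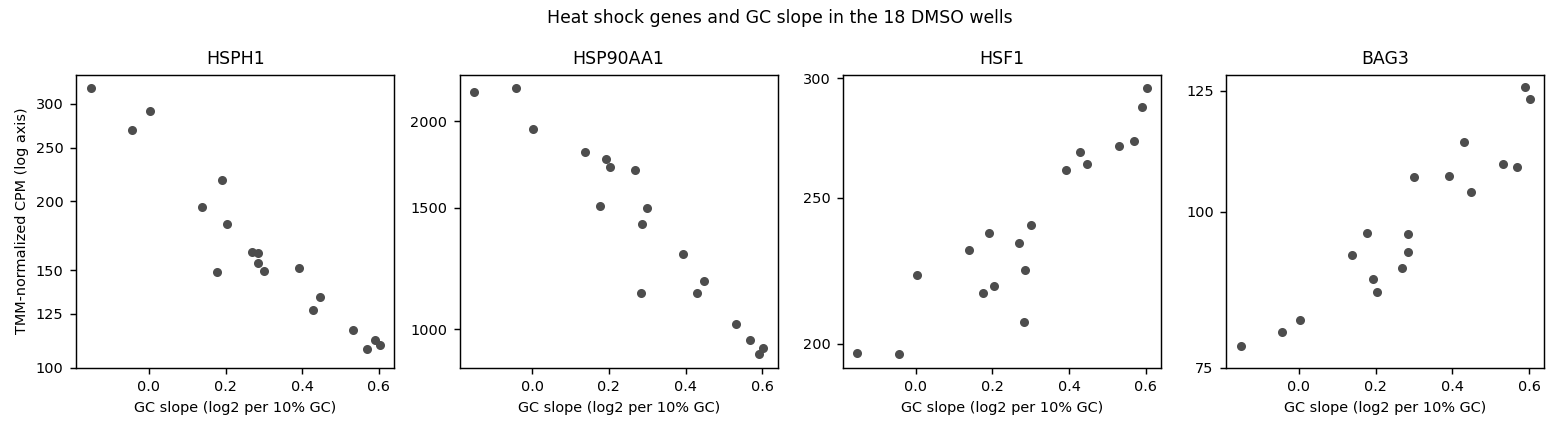
TMM-normalized CPM (log axis) of HSPH1, HSP90AA1, HSF1 and BAG3 against the GC slope of the library in log2 per 10% GC, 1 point per DMSO well (18 wells). HSPH1 and HSP90AA1 fall and HSF1 and BAG3 rise along the slope, which runs from -0.15 to 0.60.

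Triptolide and homoharringtonine moved the members in different patterns, and the other 4 compounds left them within about 1 log2 unit of DMSO. A gene was called where the adjusted p was under 0.05 and the log2(Fold Change) went past 1 in either direction, in edgeR's quasi-likelihood test with Benjamini-Hochberg adjustment over all genes tested. All 18 comparisons share the same DMSO wells. With triptolide 0 members rose and 4 fell at 100 nM, against 11.4% and 20.9% of all genes tested. At 1000 nM 2 rose and 5 fell (13.9% and 30.4% of all genes), and at 10000 nM 2 rose and 5 fell (16.2% and 30.2%). With homoharringtonine 0 rose and 4 fell at 100 nM (15.6% and 19.3%), 1 rose and 5 fell at 1000 nM (21.5% and 20.9%), and 1 rose and 5 fell at 10000 nM (23.6% and 23.4%). The median log2(Fold Change) of the members with triptolide was -0.37, -1.64 and -2.19 from the low to the high dose, beside -0.16, -0.21 and -0.17 over all genes. Homoharringtonine gave -0.83, -0.71 and -0.91, beside -0.03, -0.01 and -0.05. These shares of members called lie on both sides of the background and are read as counts only.

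By the adjusted p alone, 3, 4 and 4 members were higher with triptolide from the low to the high dose (24.5%, 28.8% and 32.2% of all genes) and 4, 5 and 6 were lower (32.3%, 38.6% and 39.7%). With homoharringtonine 2 were higher at each dose (31.1%, 35% and 36.7%) and 6, 5 and 6 were lower (32.3%, 33.4% and 37.2%). All 3 wells stood above every DMSO well for 2, 2 and 3 members with triptolide (9.46%, 21.8% and 28.7% of 14357 genes) and for 2 at each dose with homoharringtonine (22.4%, 22.4% and 29.9%). All 3 stood below for 4, 5 and 5 members with triptolide (23.5%, 29.3% and 31.2%) and for 5 at each dose with homoharringtonine (18.7%, 19.5% and 24.8%).

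**Figure D2:**
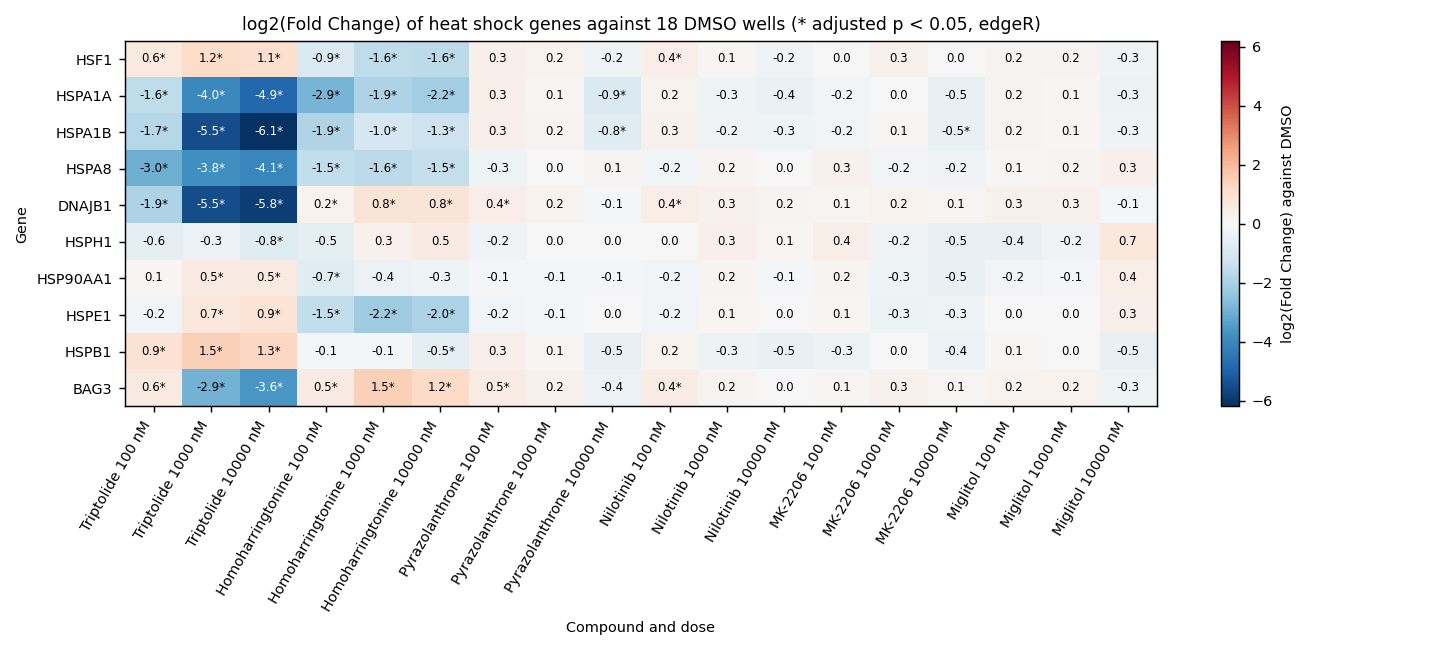
log2(Fold Change) against the 18 DMSO wells for each of the 10 genes (vertical axis) at each compound and dose (horizontal axis), in colour and as a number, with a star at an adjusted p under 0.05 in edgeR's quasi-likelihood test. The strong colours sit in the 6 triptolide and homoharringtonine columns; the rises with triptolide of HSF1, HSP90AA1, HSPE1 and HSPB1, and of BAG3 at 100 nM, turn to falls when libraries are scaled to mitochondrial mRNAs.

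The scale matters for triptolide. Scaling libraries to the 13 mitochondrially encoded mRNAs, in place of TMM, moved the median of all genes by -1.65, -2.47 and -2.75 log2 units from the low to the high dose. Library sizes alone moved it by -0.34, -0.46 and -0.53. For homoharringtonine the shifts were -0.09, -0.07 and -0.27 with mitochondrial scaling and -0.23, -0.14 and -0.04 with library sizes alone. Fold changes below are relative to the TMM scale.

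HSF1 (ENSG00000185122, plus strand of chromosome 8) moved in opposite directions with the 2 compounds. DMSO wells ranged from 196.8 to 295.7 CPM with a median of 235.1. Triptolide wells stood at 347.2, 421.7 and 364.4 at 100 nM, 571.5, 550.7 and 503.5 at 1000 nM, and 483.9, 497.1 and 574.5 at 10000 nM. Homoharringtonine wells stood at 109.1, 118.3 and 153.0 at 100 nM, 103.8, 69.18 and 68.24 at 1000 nM, and 80.37, 78.44 and 81.05 at 10000 nM. All 9 triptolide wells were above and all 9 homoharringtonine wells below every DMSO well. On the TPM scale triptolide at 100 nM, with 187.5 to 378.4, overlapped with the DMSO range of 157.8 to 238.0. The higher doses stood above that range, at 251.9 to 316.5 and, narrowly, at 238.4 to 270.7 TPM. Against DMSO, triptolide gave a log2(Fold Change) of 0.62 ± 0.12 (SE, adjusted p = 0.00014), 1.16 ± 0.11 (adjusted p = 6.7e-10) and 1.05 ± 0.11 (adjusted p = 2.7e-09) from the low to the high dose, and these turned to -0.89, -1.31 and -1.76 with mitochondrial scaling. At 100 nM it was -0.02 where 10 counts were required in every well, a filter that kept 1487 genes in that comparison. Library sizes alone gave 0.71 at 1000 nM and 0.51 at 10000 nM, both under the fold limit. The call at 10000 nM was also lost with the GC slope as a covariate (0.93), with a replicate block (0.92) and without replicate 3 (0.98). With homoharringtonine the log2(Fold Change) was -1.59 ± 0.16 (adjusted p = 2.8e-09) at 1000 nM and -1.63 ± 0.12 (adjusted p = 1.6e-11) at 10000 nM. At 100 nM the value was -0.92 ± 0.14 (adjusted p = 3.0e-06), just inside the fold limit. The 3 homoharringtonine wells at 10000 nM had GC slopes of -0.37 to -0.22, below every DMSO well, and with that covariate the value was -1.20 there. GC slope and compound cannot be told apart at that dose. The end of the HSF1 gene overlaps DGAT1 on the other strand. The kit keeps strand, and whether the counting used it is not given in the sources used here.

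**Figure D3:**
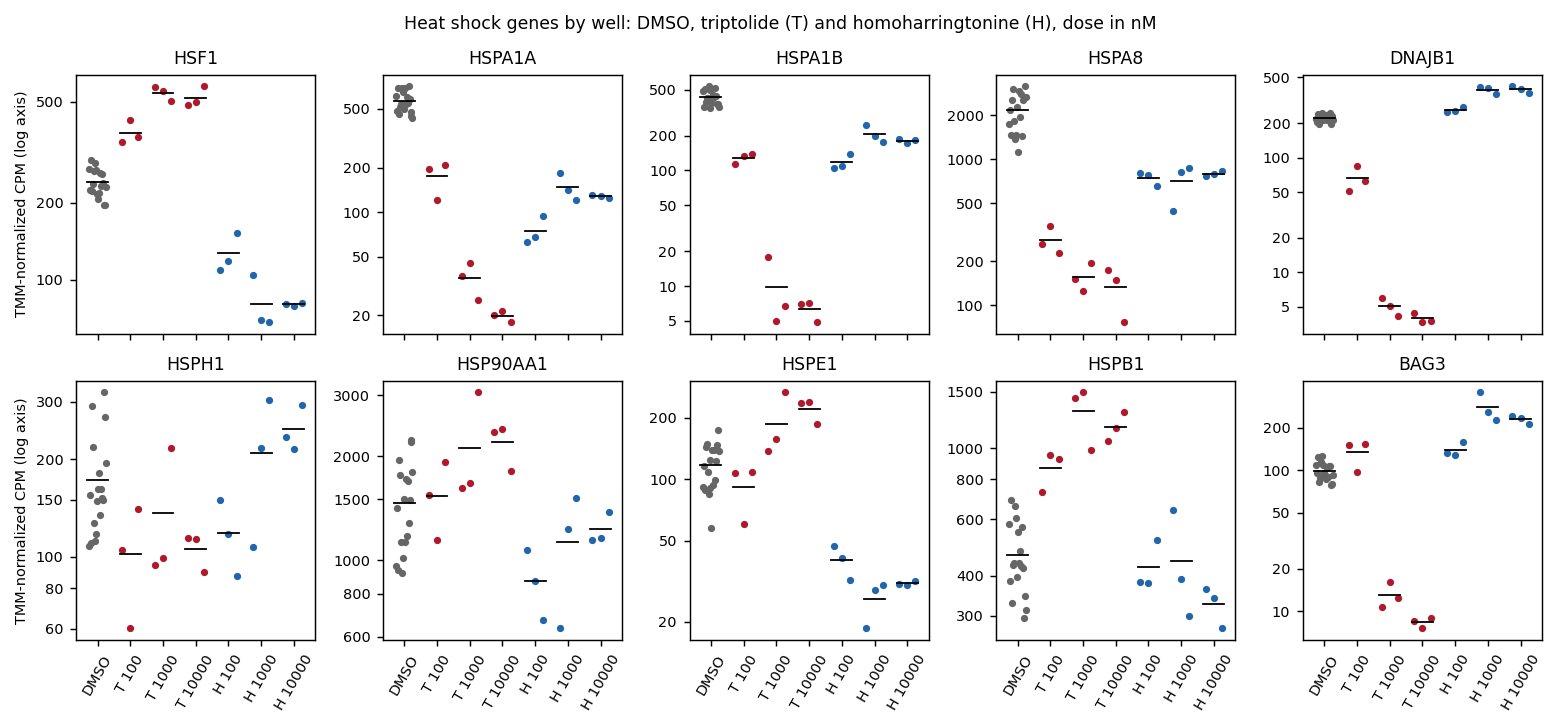
TMM-normalized CPM (log axis) of each gene in the 18 DMSO wells (grey) and in the 3 wells per dose of triptolide (T, red) and homoharringtonine (H, blue), doses in nM, with the group mean as a line. DNAJB1 in DMSO lies at 194.9 to 246.6 CPM, falls to 3.70 to 5.92 CPM with triptolide at 1000 and 10000 nM and stands above every DMSO well with homoharringtonine.

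The HSP70 genes fell with both compounds. HSPA1A (ENSG00000204389, chr6:31815543-31817946) ranged from 435.8 to 710.2 CPM in DMSO with a median of 541. With triptolide it stood at 194.7, 120.5 and 208.8 at 100 nM, at 36.81, 45.48 and 25.56 at 1000 nM, and at 20.04, 21.49 and 18.09 at 10000 nM. With homoharringtonine it stood at 62.93, 67.59 and 94.47 at 100 nM, at 182.7, 141.8 and 120.0 at 1000 nM, and at 131.6, 128.0 and 125.1 at 10000 nM. No treated well reached the lowest DMSO well, and the homoharringtonine wells at 100 nM were below all those at the higher doses. The log2(Fold Change) with triptolide was -1.55 ± 0.18 (adjusted p = 1.3e-07), -3.99 ± 0.22 (adjusted p = 7.5e-14) and -4.87 ± 0.21 (adjusted p = 2.7e-16). With homoharringtonine it was -2.90 ± 0.20 (adjusted p = 4.3e-12), -1.93 ± 0.18 (adjusted p = 1.8e-09) and -2.17 ± 0.16 (adjusted p = 2.0e-11).

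HSPA1B (ENSG00000204388, chr6:31827738-31830254), the neighbour of HSPA1A, ranged from 349.6 to 534.7 CPM in DMSO with a median of 425.1. With triptolide it stood at 114.0, 132.5 and 137.9 at 100 nM, at 17.76, 5.001 and 6.676 at 1000 nM, and at 6.996, 7.152 and 4.907 at 10000 nM. With homoharringtonine it stood at 104.6, 110.2 and 137.7 at 100 nM, at 246.2, 200.3 and 178.1 at 1000 nM, and at 187.8, 172.5 and 182.1 at 10000 nM. Again no treated well overlapped with DMSO. Relative to DMSO the log2(Fold Change) was -1.75 ± 0.17, -5.51 ± 0.31 and -6.12 ± 0.21 with triptolide, the largest of these with an adjusted p of 5.2e-18. Homoharringtonine gave -1.86 ± 0.15 (adjusted p = 1.8e-10), -1.05 ± 0.15 (adjusted p = 1.1e-06) and -1.28 ± 0.13 (adjusted p = 2.8e-09). The calls at 1000 and 10000 nM of homoharringtonine were lost with the GC slope as a covariate (-0.80 and -0.87), and at 1000 nM also without replicate 3 (-0.94).

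HSPA1A and HSPA1B encode almost the same protein, and reads that fit both are split by the authors' counting, so each value alone is uncertain. Summed, the pair gave -1.65, -4.45 and -5.29 with triptolide and -2.36, -1.49 and -1.72 with homoharringtonine, from the low to the high dose. The share of HSPA1B in the sum, a measure chosen after the values were seen, was 43.3 ± 2.29% in DMSO (SD, n = 18; 35.7 to 46.0%). It was 21.0 ± 11.4% and 24.0 ± 2.44% with triptolide at 1000 and 10000 nM, below every DMSO well. With homoharringtonine it was 61.2 ± 1.69%, 58.6 ± 1.17% and 58.5 ± 0.963%, above every DMSO well. Each of these 5 groups had an exact two-sided permutation p of 0.0015, the smallest the design allows, and 0.0054 after adjustment over 18 groups. With triptolide at 100 nM the share was 42.3 ± 7.0% (exact permutation test, adjusted p = 0.87), and 38.4% without the shallow libraries (exact permutation test, adjusted p = 0.035). In the other 12 groups it lay between 42.7 and 45.4% on average, with adjusted exact permutation p-values of 0.11 or more. How much of these shifts lies in the splitting of shared reads was not tested.

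**Figure D4:**
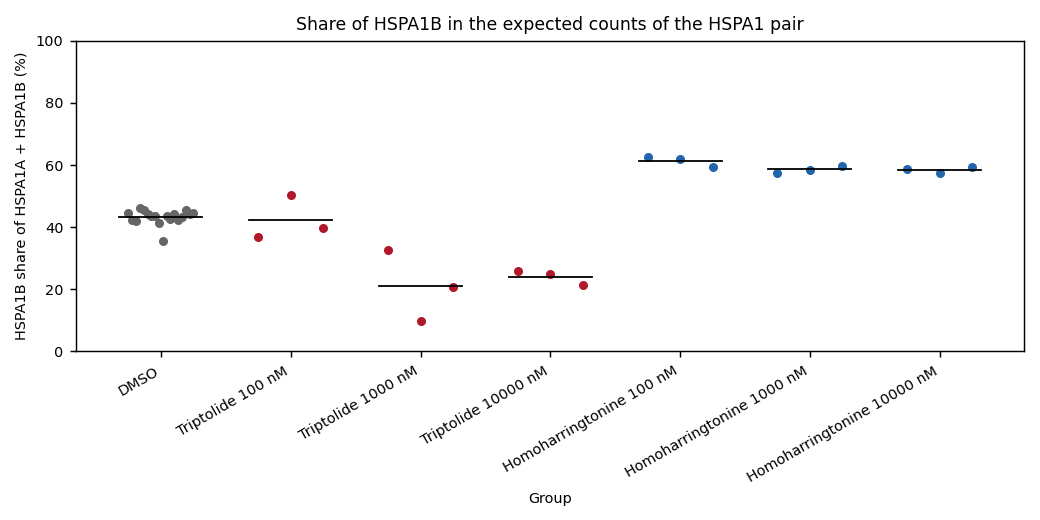
Share of HSPA1B in the summed expected counts of HSPA1A and HSPA1B in percent, 1 point per well, for DMSO (grey), triptolide (red) and homoharringtonine (blue), with the group mean as a line. DMSO wells lie at 35.7 to 46.0%, triptolide wells at 1000 and 10000 nM at 9.80 to 32.5%, and homoharringtonine wells at 57.4 to 62.4%.

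HSPA8 (ENSG00000109971, chr11:123057489-123063230), the most abundant member, had the largest fall of the members at the lowest dose of triptolide. It ranged from 1116 to 3153 CPM in DMSO with a median of 2212. Triptolide wells stood at 262.5, 349.4 and 226.4 at 100 nM, 150.7, 124.5 and 194.4 at 1000 nM, and 174.8, 149.6 and 76.93 at 10000 nM. Homoharringtonine wells stood at 801.0, 783.5 and 659.0 at 100 nM, 445.0, 815.8 and 867.5 at 1000 nM, and 768.3, 785.9 and 824.2 at 10000 nM. All 18 of these wells were below the lowest DMSO well, and the triptolide wells were all below the homoharringtonine wells. Relative to DMSO the log2(Fold Change) was -3.03 ± 0.32 (adjusted p = 2.0e-08), -3.80 ± 0.32 (adjusted p = 1.4e-10) and -4.06 ± 0.35 (adjusted p = 1.8e-10) with triptolide. Homoharringtonine gave -1.52 ± 0.25, -1.61 ± 0.28 and -1.48 ± 0.26, with adjusted p-values of 1.4e-05 to 2.1e-05. With the GC slope as a covariate the value with homoharringtonine at 10000 nM was -2.28.

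The cochaperone genes DNAJB1 and BAG3 fell with triptolide at the higher doses and stood above DMSO with homoharringtonine. DNAJB1 (ENSG00000132002, chr19:14514769-14560391) was the most even member in DMSO, with 194.9 to 246.6 CPM and a median of 225. Triptolide wells stood at 50.72, 84.34 and 62.9 at 100 nM, 5.92, 5.118 and 4.2 at 1000 nM, and 4.466, 3.703 and 3.799 at 10000 nM. Homoharringtonine wells stood at 250.3, 253.2 and 276.4 at 100 nM, 408.5, 400.3 and 355.7 at 1000 nM, and 417.6, 396.7 and 364.5 at 10000 nM. Every triptolide well was below and every homoharringtonine well above the DMSO range. All 3 wells were also above it with pyrazolanthrone (1.78% of 14357 genes) and nilotinib (2.63%) at 100 nM. The same held for MK-2206 (1.59%) and miglitol (0.919%) at 1000 nM. On the TPM scale homoharringtonine at 100 nM averaged 157.4, inside the DMSO range, whose mean was 162.9. At the higher doses it averaged 260.7 and 286.8 TPM. Against DMSO, triptolide gave a log2(Fold Change) of -1.92 ± 0.12 (adjusted p = 7.7e-12), -5.50 ± 0.14 (adjusted p = 2.3e-19) and -5.84 ± 0.13 (adjusted p = 7.2e-21). With homoharringtonine it was 0.24 ± 0.08 (adjusted p = 0.0077), 0.80 ± 0.07 (adjusted p = 8.7e-10) and 0.79 ± 0.07 (adjusted p = 5.5e-10), past the p limit at each dose and under the fold limit at each. The gene overlaps TECR on the other strand, which had a median of 115.5 TPM.

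BAG3 (ENSG00000151929, chr10:119651380-119677819), which also works with small heat shock proteins and autophagy, ranged from 78 to 125.7 CPM in DMSO with a median of 96.05. Triptolide wells stood at 151.7, 96.38 and 154.6 at 100 nM, 10.68, 16.05 and 12.38 at 1000 nM, and 8.498, 7.588 and 8.944 at 10000 nM. Homoharringtonine wells stood at 132.3, 128.7 and 158.8 at 100 nM, 355.9, 256.8 and 225.8 at 1000 nM, and 242.9, 232.6 and 213.9 at 10000 nM. At 100 nM of triptolide 2 of 3 wells were above every DMSO well and the third, the library of 70767 counts, was among them. At the higher doses all 6 wells were below, and all 9 homoharringtonine wells were above. The log2(Fold Change) with triptolide was 0.58 ± 0.14 (adjusted p = 0.0013) at 100 nM, which turned to -1.11 with mitochondrial scaling, then -2.94 ± 0.18 (adjusted p = 3.3e-13) and -3.61 ± 0.17 (adjusted p = 2.4e-15). Homoharringtonine gave 0.51 ± 0.13 (adjusted p = 0.0015), 1.49 ± 0.13 (adjusted p = 4.6e-10) and 1.19 ± 0.11 (adjusted p = 1.3e-09). The call at 10000 nM was lost with a replicate block (0.99) and with mitochondrial scaling (0.87).

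HSPH1 (ENSG00000120694, chr13:31134973-31162388), an HSP110 protein, had the widest spread in DMSO relative to its level, 107.9 to 321 CPM with a median of 153.2. Triptolide wells ranged from 60.24 to 217.0 and homoharringtonine wells from 87.44 to 304.7, both overlapping with DMSO. The largest change was -0.76 ± 0.28 (adjusted p = 0.018) with triptolide at 10000 nM, under the fold limit, and with homoharringtonine at 10000 nM the value was 0.49 ± 0.25 (adjusted p = 0.084). With the GC slope as a covariate these became -0.37 and -0.62, so the second turned in direction, and at 100 nM of homoharringtonine that covariate gave -1.01 (edgeR, adjusted p = 8.2e-10), past the fold limit.

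HSP90AA1 (ENSG00000080824, chr14:102080742-102139699), the inducible HSP90 gene, also overlapped with DMSO, where it ranged from 920.5 to 2234 CPM with a median of 1457. Triptolide wells ranged from 1145 to 3061 and homoharringtonine wells from 636.5 to 1519. On the TPM scale DMSO wells ranged from 729.7 to 1120 with a mean of 897.1. Triptolide at 10000 nM stood at 649.2 to 713.5 TPM, below that range, and at 1000 nM averaged 898.4. Homoharringtonine was below that range at each dose, with 368.2 to 461.1, 540.1 to 690.4 and 543.3 to 653.6 TPM. Against DMSO, triptolide gave a log2(Fold Change) of 0.52 ± 0.23 (adjusted p = 0.044) at 1000 nM and 0.54 ± 0.21 (adjusted p = 0.025) at 10000 nM, and it turned to -1.91 and -2.17 with mitochondrial scaling. With homoharringtonine it was -0.73 ± 0.23 (adjusted p = 0.0087), -0.38 ± 0.25 (adjusted p = 0.18) and -0.28 ± 0.23 (adjusted p = 0.27). With the GC slope as a covariate the last 3 became -1.15, -0.98 and -1.25, with adjusted p-values from edgeR of 2.2e-12 to 9.4e-11.

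HSPE1 (ENSG00000115541, chr2:197500140-197503449) fell with homoharringtonine. It ranged from 57.8 to 174.4 CPM in DMSO with a median of 119.4. Homoharringtonine wells stood at 47.1, 40.86 and 32.1 at 100 nM, 18.63, 28.73 and 30.38 at 1000 nM, and 30.61, 30.18 and 31.83 at 10000 nM, all below DMSO. Triptolide wells stood at 106.8, 60.24 and 108.0 at 100 nM, 138.2, 157.1 and 266.2 at 1000 nM, and 235.8, 239.6 and 186.6 at 10000 nM, and only the 10000 nM group lay wholly above DMSO. On the TPM scale that group stood at 267.7 to 395.6, inside the DMSO range of 200.1 to 475.4. The 100 nM group of triptolide stood below that range, at 119.4 to 193.4 TPM. The log2(Fold Change) with homoharringtonine was -1.54 ± 0.21 (adjusted p = 8.6e-07), -2.19 ± 0.23 (adjusted p = 1.2e-08) and -1.96 ± 0.22 (adjusted p = 2.4e-08). With triptolide it was 0.66 ± 0.20 (adjusted p = 0.0051) at 1000 nM and 0.86 ± 0.18 (adjusted p = 0.00014) at 10000 nM, which turned to -1.79 and -1.87 with mitochondrial scaling. At 10000 nM it passed the fold limit in DESeq2 (1.04), with a replicate block (1.1) and with the GC slope as a covariate (1.07). HSPE1 lies head to head with HSPD1, the gene of its partner, and overlaps it on the other strand. HSPD1 stood at 0.36 (adjusted p = 0.13) with triptolide and -0.78 (adjusted p = 0.0048) with homoharringtonine at 10000 nM.

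HSPB1 (ENSG00000106211, chr7:76302673-76304295) rose with triptolide. It ranged from 295.9 to 687.5 CPM in DMSO with a median of 435.1. Triptolide wells stood at 728.6, 951.8 and 925.0 at 100 nM, 1432, 1493 and 988.7 at 1000 nM, and 1051, 1155 and 1296 at 10000 nM, all above DMSO. On the TPM scale each dose overlapped with the DMSO range of 686.0 to 1468. Triptolide wells there stood at 993.3 to 1758, 1277 to 1987 and 1344 to 1576 from the low to the high dose. Homoharringtonine wells ranged from 274.5 to 640.2. The log2(Fold Change) with triptolide was 0.91 ± 0.21 (adjusted p = 0.00070), 1.49 ± 0.19 (adjusted p = 2.6e-07) and 1.28 ± 0.19 (adjusted p = 1.5e-06), and these turned to -0.63, -0.99 and -1.56 with mitochondrial scaling. Library sizes alone gave 0.74 at 10000 nM. With homoharringtonine at 10000 nM it was -0.54 ± 0.21 (adjusted p = 0.028), and it turned to 0.36 (edgeR, adjusted p = 0.013) with the GC slope as a covariate.

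A direct comparison of both compounds, triptolide minus homoharringtonine, was made at each dose with 3 wells against 3. At 100 nM 4 members were higher and 2 lower with triptolide (20.5% and 27.4% of all genes), at 1000 nM 3 and 5 (22.6% and 35.9%), and at 10000 nM 3 and 6 (30.2% and 37.9%). DNAJB1 was lower at every dose, with log2 differences of -2.10 ± 0.19, -6.30 ± 0.22 and -6.55 ± 0.11. BAG3 differed by 0.15 ± 0.18 (adjusted p = 0.48) at 100 nM, with an interval of -0.22 to 0.52, and by -4.44 ± 0.26 and -4.71 ± 0.10 at the higher doses. HSPA1A changed sides, from 1.43 ± 0.20 at 100 nM to -2.06 ± 0.26 and -2.62 ± 0.09, but at 100 nM it was -0.21 with mitochondrial scaling and 0.73 with the GC slope as a covariate. HSF1 was higher with triptolide by 1.60 ± 0.18, 2.74 ± 0.20 and 2.77 ± 0.08, and HSPE1 by 1.44 ± 0.20, 2.84 ± 0.32 and 2.91 ± 0.10. With mitochondrial scaling every higher call was lost, since HSF1 became 0.06, 0.31 and 0.19 and HSPE1 -0.18, 0.50 and 0.32, and HSPB1 was lost at each dose. With the GC slope as a covariate HSF1 at 100 nM was 0.86, under the fold limit, HSPB1 was lost at each dose, and HSP90AA1 passed the limit at each (1.55, 1.85 and 2.38). At 10000 nM the GC slopes of the triptolide wells, 0.40 to 0.55, did not overlap with those of homoharringtonine, and that covariate took HSPA8 from -2.49 to 0.08 and HSPH1 from -1.16 to 0.51. With no overlap the GC slope and the compound cannot be told apart, so these 2 values do not decide the direction.

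Over the 9 wells of each compound a slope on log10 dose was fitted, called at the adjusted p alone. With triptolide 5 members fell with dose and 1 rose (17.7% and 6.4% of all genes). The slopes per 10-fold dose were -2.23 ± 0.29 for HSPA1B, -2.12 ± 0.23 for BAG3, -2.01 ± 0.26 for DNAJB1, -1.70 ± 0.16 for HSPA1A, -0.57 ± 0.14 for HSPA8 and 0.44 ± 0.13 for HSPE1. The call for HSPA8 was lost without replicate 2 (-0.55) or 3 (-0.48), and that for HSPE1 without replicate 1 (0.44) or 2 (0.41). Dose slopes were not fitted with mitochondrial scaling. Its shift of the median of all genes with triptolide went from -1.65 at 100 nM to -2.75 at 10000 nM. How the rise of HSPE1 with dose would stand on that scale was not tested. With homoharringtonine 2 members rose and 1 fell (21.3% and 23.1%): HSPH1 with 0.50 ± 0.17, DNAJB1 with 0.27 ± 0.07 and HSF1 with -0.37 ± 0.10. HSPH1 and HSF1 were lost without replicate 2 or 3 and DNAJB1 without replicate 1 or 2. With the GC slope as a covariate 5 rose and 3 fell, HSPH1 with 0.23, DNAJB1 with 0.32, BAG3 with 0.48, HSPA1B with 0.41 and HSPA1A with 0.53 upward, and HSF1 with -0.26, HSPE1 with -0.40 and HSPA8 with -0.17 downward. The HSPA8 slope with homoharringtonine was 0.01 ± 0.10 (adjusted p = 0.95).

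The other 4 compounds gave 0 calls among the members in 12 groups, by edgeR and by DESeq2. Over all genes the shares called higher and lower were 0.342% and 0.581%, 0% and 0%, and 0.589% and 0.568% for pyrazolanthrone from the low to the high dose. They were 0.702% and 0.778%, 0.745% and 0.383%, and 2.41% and 0.709% for nilotinib. For MK-2206 they were 0.0054% and 0%, 0.194% and 0.0918%, and 0.56% and 0.151%, and for miglitol 0% at every dose. Fold changes of the members over these 120 values ranged from -0.88 to 0.67 on the log2 scale, with 95% intervals from -1.19 to 1.18, and 29 values had an unadjusted p under 0.05. By the adjusted p alone, 8 values passed in edgeR and 10 in DESeq2. Pyrazolanthrone at 10000 nM had the inducible HSP70 pair lower, HSPA1A at -0.88 ± 0.15 (adjusted p = 0.00044) and HSPA1B at -0.75 ± 0.12 (adjusted p = 0.00027), where 4.3% of all genes were lower and 3.35% higher by that limit. HSPA1A wells there stood at 286.1, 321.6 and 332.5 CPM and HSPA1B wells at 245.1, 267.5 and 268.5. All 6 values were below the DMSO range, as were 2.7% of 14357 genes. At 100 nM pyrazolanthrone had BAG3 at 0.48 (adjusted p = 0.029) and DNAJB1 at 0.41 (adjusted p = 0.0040), with 3.2% of all genes higher and 1.56% lower. Nilotinib at 100 nM had BAG3 at 0.44 (adjusted p = 0.049), DNAJB1 at 0.41 (adjusted p = 0.0022) and HSF1 at 0.42 (adjusted p = 0.039), with 5.5% of all genes higher and 3.58% lower. No member passed with nilotinib at 1000 nM (2.51% and 1.44%) or 10000 nM (7.97% and 6.39%), nor with MK-2206 at 100 nM (0.0594% and 0.0054%) or 1000 nM (1.2% and 0.318%). MK-2206 at 10000 nM had HSPA1B at -0.45 (adjusted p = 0.048), with 0.948% lower and 2.21% higher. Miglitol gave none at any dose.

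Dose slopes were called for pyrazolanthrone in 6 members, all falling (10% of all genes, with 9.34% rising): HSPA1A with -0.62 ± 0.13, HSPA1B with -0.54 ± 0.12, BAG3, HSPB1, HSF1 and DNAJB1. All 6 calls were lost without replicate 2 and without replicate 3. The GC slope of the pyrazolanthrone libraries moved with dose, from 0.29 to 0.65 at 100 nM to -0.02 to 0.19 at 10000 nM, and with it as a covariate only BAG3 still passed (-0.24, adjusted p from edgeR = 0.04). With miglitol HSPH1 rose by 0.56 ± 0.11 and HSPB1 fell by 0.27 ± 0.08 per 10-fold dose (13.1% and 3.39% of all genes), and both calls were lost on leaving out any 1 replicate. Its GC slopes were 0.28 to 0.58 at 100 nM and -0.09 to 0.03 at 10000 nM, and both calls were lost with that covariate (0.17 and -0.04).

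A wider list of 51 chaperone and heat shock genes was counted in the same fits. At 10000 nM of triptolide 6 rose and 13 fell of 48 tested, where 16.2% and 30.2% of all genes did, and with homoharringtonine 9 rose and 8 fell of 49, where 23.6% and 23.4% did. These shares of the list are below the background in each direction. The same background holds for the groups of 2 to 9 genes that follow, which are too small to be read against it. Of 8 J-domain proteins, relatives of DNAJB1 that bring substrates to HSP70, 0 rose and 4 fell with triptolide, and 3 rose and 0 fell with homoharringtonine. Of 7 HSP70 cofactors 1 rose and 4 fell with triptolide and 1 rose and 2 fell with homoharringtonine. None of the 8 chaperonin subunits, which fold actin and tubulin, passed the fold limit with either compound at 10000 nM, with 6 higher and 0 lower by the adjusted p alone for triptolide (32.2% and 39.7% of all genes) and 3 higher and 2 lower for homoharringtonine (36.7% and 37.2%). The median of the chaperonin subunits with triptolide was 0.52, smaller than the shift of -2.75 by mitochondrial scaling.

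At 10000 nM 16.2% of all genes rose and 30.2% fell with triptolide, and 23.6% and 23.4% with homoharringtonine. Of the HSP90 group of 9, 1 rose with triptolide and 1 fell with homoharringtonine at that dose, which also holds for the next groups. Of 3 small heat shock proteins tested 2 rose with triptolide and 2 fell with homoharringtonine. Of the other HSP70 and HSP110 genes 0 rose and 3 fell of 4 tested with triptolide, and 2 rose and 2 fell of 5 with homoharringtonine. Of 2 mitochondrial chaperones none was called with either compound, and of 3 HSF family genes 1 rose and 1 fell with triptolide and 1 rose with homoharringtonine. Of 4 other heat-inducible genes 1 rose and 1 fell with triptolide and 2 rose and 1 fell with homoharringtonine. With the other 4 compounds 0 genes of the list were called, apart from 1 that rose with nilotinib at 10000 nM, HSPA6.

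HSF2, a second heat shock factor, moved opposite to HSF1. It went from 13.3 ± 5.33 CPM in DMSO to 1.31 ± 0.418 with triptolide and 77.7 ± 12.8 with homoharringtonine at 10000 nM, a log2(Fold Change) of -3.31 ± 0.36 (adjusted p = 1.1e-08) and 2.59 ± 0.21 (adjusted p = 5.4e-11). The collagen chaperone SERPINH1 moved like HSF1, from 280 ± 37.9 CPM to 766 ± 36.0 with triptolide and 49.4 ± 1.01 with homoharringtonine, a log2(Fold Change) of 1.40 and -2.53. The rises named here for triptolide are smaller than the shift of the median by mitochondrial scaling at that dose. Other large changes with triptolide at 10000 nM were CRYAB (1.76) and CDC37 (1.44), the kinase-specific partner of HSP90, upward, and BAG5 (-3.59) and DNAJA2 (-3.38) downward. With homoharringtonine they were ZFAND2A (2.09) upward, and HSPBP1 (-1.53) and AHSA1 (-1.35), an activator of HSP90, downward. The values named for these genes each had an adjusted p from edgeR of 1.1e-08 or less. For the genes and counts of the wider list, values with the GC slope as a covariate are not given here. At 10000 nM of homoharringtonine that slope lay below every DMSO well.

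For each member the 3 protein-coding genes with the most similar pattern were found by Pearson's r of log2(CPM + 1) over the 19 group means, among 9371 genes with a mean of at least 10 CPM. The group means share the TMM scale and are set apart mainly by the 6 triptolide and homoharringtonine groups, so r is a description. They were DGKZ, ADCY3 and OGFOD3 for HSF1 (r of at least 0.99), SALL2, ZDHHC5 and MAGEE1 for HSPA1A (0.97 to 0.98), CCNF, AHDC1 and LMTK2 for HSPA1B (all 0.99), and BTBD7, BLCAP and ZC3H13 for HSPA8 (all 0.99). For DNAJB1 they were SPATA2, MUL1 and YTHDF1 (at least 0.99) and for BAG3 BCAR1, DAPK3 and DTX2 (all 0.99). For HSPH1 they were XPO1, SENP6 and SUZ12 (0.92 to 0.94), for HSP90AA1 PBK, HSDL2 and ATRX (0.93 to 0.94), for HSPE1 FAM20B, MMP16 and NIN (all 0.98) and for HSPB1 TK1, NDUFS8 and LIG1 (0.98 to 0.99). No member was among the 3 most similar genes of another member. With only 3 places among 9371 genes, that does not show how alike the members were to each other.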

How the data were processed

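The data are population RNA-seq of 72 U2OS wells, grouped by the labels' compound and dose. The authors processed them with a standard RSEM workflow on GRCh38. The submitters' processing notes also name HTSeq and DESeq2, and no version or annotation release is given in the sources used here. Expected counts, as deposited, are reads per gene as estimated by RSEM and are not normalized. The TPM and FPKM columns, as deposited, are scaled for gene length and library size, and FPKM was not used here.

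Expected counts were rounded and fitted with edgeR 4.0.16 under R 4.3.3. TMM scaling, filterByExpr with a minimum count of 10, glmQLFTest after glmQLFit and Benjamini-Hochberg adjustment were used. Each fit against DMSO held 3 treated and 18 DMSO wells. Standard errors are the log2 fold change divided by the square root of F, and intervals are 95%, from the t distribution with edgeR's total degrees of freedom. Other fits compared triptolide with homoharringtonine per dose, slopes on log10 dose within each compound, and the difference of these slopes. Alternatives were DESeq2 1.42.0, other scalings (RLE, library sizes, mitochondrial mRNAs), other filters, 1 fit of all wells, the HSPA1 pair summed, a replicate block, leaving out each replicate, and leaving out libraries under 10 mil. Mitochondrial scaling was run against DMSO and between the compounds, not for dose slopes or their differences. The GC slope as a covariate and the HSPA1B share were added after seeing the data. Permutation tests used Python 3.11.15 with scipy 1.17.1. Tested on simulated counts of 18224 genes with 200 changed by a log2 fold change of 2 in 3 wells against 18, edgeR recovered 200 with 7 false calls and DESeq2 200 with 21. The simulation gave every gene the same setting of spread and no change of GC slope between wells. It checks the code, and its rates do not carry over to the real wells.

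Depth was 70767 to 68.3 mil expected counts per well. Among 207 pairs of replicates the lowest chi-square per degree of freedom was 1.35, so none was counted as a duplicate. Replicate numbers did not pair the wells in a uniform way. Deviations of same-numbered wells correlated at -0.0613 on average between treated and DMSO wells. Between doses of 1 compound the average was 0.0198, with the lowest pair of every compound below 0. By compound it was 0.277 for pyrazolanthrone, 0.255 for nilotinib and 0.120 for miglitol. For triptolide, homoharringtonine and MK-2206 it was -0.239, -0.133 and -0.277. Gene positions are from GENCODE release 44, and GC content, from its transcripts, was available for 99.5% of the genes used. The members and gene lists were chosen with earlier results of these data known. All members are named. Of the wider list the 3 largest rises and falls among called genes with a mean of at least 10 CPM are named for triptolide and homoharringtonine at 10000 nM, apart from 1 that is not reported here. BH-adjusted p-values run over all genes tested.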

Additional observations from a re-analysis of the deposited data

Results flagged for a closer look

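The dose slopes of triptolide and homoharringtonine were compared directly, over 18 wells, by the interaction of compound and log10 dose in edgeR's quasi-likelihood test. For 7 of the 10 members the difference (triptolide minus homoharringtonine, log2 per 10-fold dose) passed an adjusted p of 0.05, 2 upward and 5 downward, where 19.2% and 21.9% of all genes did. The largest differences were those of HSPA1B with -2.45 ± 0.34 (adjusted p = 2.2e-05), BAG3 with -2.4 ± 0.30 (adjusted p = 7.2e-06), DNAJB1 with -2.22 ± 0.28 (adjusted p = 7.9e-06) and HSPA1A with -1.99 ± 0.24 (adjusted p = 3.8e-06). These genes fell with the dose of triptolide. HSPE1 differed by 0.73 ± 0.19 (adjusted p = 0.0052), HSF1 by 0.56 ± 0.14 (adjusted p = 0.0040) and HSPA8 by -0.52 ± 0.19 (adjusted p = 0.030). The call for HSPA8 was lost without replicate 2 (-0.53), replicate 3 (-0.38) or the libraries under 10 mil (-0.46), and with the GC slope as a covariate (-0.37). The call for HSPE1 was lost without replicate 1 (0.61) or 2 (0.67), and that for HSF1 without replicate 3 (0.43) or with library sizes alone (0.31). Mitochondrial scaling was not run for these differences. From 100 to 10000 nM its shift of the median of all genes went from -1.65 to -2.75 with triptolide. With homoharringtonine it went from -0.09 to -0.27. How the upward differences of HSPE1 and HSF1 would stand on that scale was not tested.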

How the results depend on the processing

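Counts of called members are given as value, then the value of the report in brackets. For most settings the share of all genes called is not given beside them, so they show only how calls moved. With mitochondrial scaling the median of all genes with triptolide was itself -1.81, -2.68 and -2.92 log2 units from the low to the high dose. With the adjusted p alone, higher counts were 2 (0) for pyrazolanthrone 100 nM, 3 (0) for nilotinib 100 nM, 3 (0), 4 (2) and 4 (2) for triptolide and 2 (0), 2 (1) and 2 (1) for homoharringtonine from the low to the high dose; lower counts were 2 (0) for pyrazolanthrone and 1 (0) for MK-2206 at 10000 nM. With mitochondrial scaling lower counts were 1 (0) for pyrazolanthrone and 3 (0) for nilotinib at 10000 nM, and 8 (4), 9 (5) and 10 (5) for triptolide; higher counts were 0 (2) for triptolide at 1000 and at 10000 nM and 0 (1) for homoharringtonine at 10000 nM. Between the compounds it gave 0 (4), 0 (3) and 0 (3) higher, and 5 (2) lower at 100 nM. The mitochondrial share itself moved with triptolide; the cause of the lost calls was not tested.

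Mitochondrial scaling turned the direction of 37 of 180 values of single genes against DMSO and of 11 of 30 between the compounds; of these, 11 and 7 had passed the adjusted p, and those past that limit or called after scaling follow. With triptolide at 100 nM HSP90AA1 became -1.35, BAG3 -1.11, HSF1 -0.89 and HSPB1 -0.63; at 1000 nM HSP90AA1 -1.91, HSPB1 -0.99, HSPE1 -1.79 and HSF1 -1.31; at 10000 nM HSP90AA1 -2.17, HSPB1 -1.56, HSPE1 -1.87 and HSF1 -1.76. For triptolide minus homoharringtonine at 100 nM HSP90AA1 became -0.59, HSPB1 -0.42, HSPE1 -0.18, HSPH1 -1.57, BAG3 -1.49, HSPA1B -1.45 and HSPA1A -0.21; at 1000 nM HSP90AA1 -1.40 and HSPB1 -0.90; at 10000 nM HSP90AA1 -1.68 and HSPB1 -0.68.

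The GC slope as a covariate turned 43 values against DMSO, 1 of them past the adjusted p (HSPB1 with homoharringtonine at 10000 nM), and 5 between the compounds, 2 of them past it at 10000 nM (HSPA8, 0.08; HSPH1, 0.51). At 10000 nM of homoharringtonine the GC slope overlapped with neither DMSO nor triptolide, so there it cannot be told apart from the compound. Between the compounds the covariate gave 2 (4) higher at 100 nM. Falling slopes were 1 (6) for pyrazolanthrone, 2 (0) for nilotinib (HSP90AA1, -0.24; HSPH1, -0.28; both positive before), 4 (0) for MK-2206, 0 (1) for miglitol and 3 (1) for homoharringtonine (HSPA8, -0.17, turned); rising slopes were 0 (1) for miglitol and 5 (2) for homoharringtonine.

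Library sizes alone gave 1 (2) and 0 (2) higher for triptolide at 1000 and 10000 nM, and for dose slopes 0 (1) lower with miglitol, 5 (2) higher and 0 (1) lower with homoharringtonine and 1 (2) higher for the slope difference. With no filter 1 (2) rose with triptolide at 10000 nM and 3 (1) slopes fell with miglitol. DESeq2 gave 1 (0) falling slope for nilotinib, 5 (1) for miglitol and 5 (2) rising slopes for homoharringtonine. The replicate block gave 1 (0) higher for miglitol at 10000 nM (HSPH1, 1.15) and 0 (1) for homoharringtonine at 10000 nM (BAG3, 0.99). For slopes it gave 1 (0) falling for nilotinib, 2 (1) for miglitol and 1 (2) rising for homoharringtonine. The replicate numbers did not pair the wells in a uniform way.

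Leaving out 1 replicate at a time gave 0 to 1 rising and 0 to 2 falling slopes for homoharringtonine, 0 to 0 of either for miglitol, 0 to 1 rising and 0 to 6 falling for pyrazolanthrone, 0 to 2 falling for nilotinib, 0 to 1 rising for triptolide, 1 to 1 higher for the slope difference, and 0 to 1 and 1 to 2 higher for triptolide at 100 and 10000 nM. The causes were not tested. With 3 wells per dose, the dose slopes rest on 9 wells. At 70767 counts triptolide 100 nM replicate 2 gives coarse values for members under about 100 CPM.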

Other observations

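HSPA6 and HSPA2, relatives of HSPA1A in the HSP70 family, lie outside the naming rule for the wider list and were chosen after their values were seen. HSPA6, which human cells make under strong heat shock, ranged from 0 to 3.03 CPM in the 18 DMSO wells with a median of 2.35. With nilotinib at 10000 nM its wells stood at 5.67, 7.15 and 7.95 CPM, all above DMSO, while all 10 members stayed uncalled in the same wells. The log2(Fold Change) of HSPA6 there was 1.57 ± 0.17 (SE; edgeR's quasi-likelihood test, adjusted p = 2.4e-07), and it was 0.84 (adjusted p = 0.029) with mitochondrial scaling, under the fold limit, and 1.47 to 1.72 in the other alternatives. At 100 and 1000 nM of nilotinib it was 0.53 (adjusted p = 0.09) and 0.27 (adjusted p = 0.56). With homoharringtonine HSPA6 was at 1.59 ± 0.414, 1.61 ± 0.364 and 1.01 ± 0.105 CPM from the low to the high dose (SD, n = 3 each).

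HSPA2, a chaperone known from the testis, had a median of 0.142 CPM in DMSO, where 1 well of 7.01 stood apart. It was at 6.96 ± 0.776, 25.8 ± 6.16 and 25.6 ± 0.922 CPM with homoharringtonine from the low to the high dose (SD, n = 3 each), and all 3 wells at 10000 nM were above every DMSO well.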
